A study of Mus musculus with 6 samples.

Results

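Cartilage is built by chondrocytes, and the genes described here are 10 that mark or build it other than by collagen: the transcription factors Sox9, Sox5 and Sox6, the aggregating proteoglycan gene Acan, the link protein gene Hapln1, Comp, the matrilins Matn1 and Matn3, Snorc and Cnmd. They were chosen by gene symbol, and all 10 were found among the 29018 genes of the deposited expression table, each under a single identifier. RNA sequencing had been done on osteoblasts, the bone-forming cells. They came from calvaria, the roof of the skull, of neonatal mice and had been differentiated in an osteogenic culture. There were 3 libraries from NDR1 knockout (KO) cells and 3 from wild-type (WT) cells. NDR1 is a serine/threonine kinase encoded by Stk38. The labels gave no treatment that set the groups apart, and no strain, sex, exact age or design of the KO allele, nor whether replicates were separate animals or cultures, so p-values reflect the variation among these libraries alone, and it may be technical.

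SOX9 is the transcription factor that commits mesenchymal cells to cartilage, and SOX5 and SOX6, which resemble each other closely, work with it to switch on genes of cartilage matrix such as Col2a1 and Acan. Aggrecan, the product of Acan, carries chondroitin sulfate chains that hold water, and the link protein HAPLN1 fastens it to hyaluronan. COMP and the matrilins are adaptor proteins that connect collagen fibrils with one another and with proteoglycans. The skull vault forms bone directly from mesenchyme with no cartilage model, while the skull base and the cartilage beneath the vault of newborn mice hold chondrocytes.

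KO libraries held more Sox9 mRNA and almost no Matn1 mRNA, while the other matrix and regulator genes of the set differed little or not measurably from WT. Of the 10 genes, 9 had enough counts to be tested with edgeR's quasi-likelihood test. With p-values adjusted by Benjamini-Hochberg over all genes tested and a threshold of 0.05, 1 of the 9 was higher in KO (Sox9) and 2 were lower (Matn1 and Cnmd). For these 3 of the 9 genes no KO library overlapped a WT library on the CPM scale (TMM-scaled read counts relative to library size), as was so for 38.2% of all genes tested. Over all 18221 genes tested, 11.2% were called higher and 11.7% lower, or 22.9% in either direction, so the number of calls in the set says little by itself. The median log2 change of the 9 was -0.07, against 0.00 over all genes tested. The split of calls over all genes depended on scaling, with 49.0% of calls higher in KO after TMM scaling, 63.0% on library totals without TMM and 64.6% when limma was run on FPKM with a pseudocount of 1.

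Library totals lay between 61461870 and 76159034 counts in KO and between 66308530 and 68395991 in WT. Stk38 itself had 3843, 3004 and 4040 counts in KO and 4781, 5082 and 5331 in WT, and its log2 change was -0.61 ± 0.05 (SE), so it was reduced but still read. The label of osteoblast was checked on 12 markers. Type I collagen dominated, Col1a1 averaging 23044 CPM in KO and 31683 CPM in WT, while Bglap, an osteocalcin gene, averaged 0.39 CPM in KO and 0.732 CPM in WT. Of the 12, 2 rose and 6 fell in KO. Spp1, which encodes osteopontin, averaged 1730 ± 158 CPM in KO and 658 ± 52.1 CPM in WT and rose 2.63-fold (edgeR, adjusted p = 2.54e-07). The summed level of the 12, most of it Col1a1 and Col1a2, ran from 44292 to 46666 CPM in KO and from 60379 to 62120 CPM in WT. Transcripts typical of cartilage were abundant in both genotypes. The 19 chondrocyte markers, which include the 10 genes, summed to between 5762 and 6181 CPM in KO and between 4504 and 5027 CPM in WT, most of it Col2a1. Counted gene by gene the balance was the other way, with 2 of the 18 tested higher and 8 lower in KO and a median log2 change of -0.13. In libraries of whole cultures, fewer cells of a type and less RNA per cell cannot be told apart.

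The 10 genes spanned a wide range of levels. On the FPKM scale, which corrects for transcript length and allows genes to be compared, Cnmd stood highest at 118 ± 1.75 in KO and 124 ± 5.73 in WT (SD, n = 3 per group). It encodes chondromodulin, a membrane glycoprotein of cartilage known to inhibit blood vessel growth, and its mean level was above that of 99.1% of the genes in the table. Comp followed at 27.6 ± 2.04 FPKM in KO and 29.4 ± 1.79 FPKM in WT. Sox9 stood at 27.6 ± 0.957 FPKM in KO and 18.6 ± 0.801 FPKM in WT, so that its libraries overlapped those of Comp in KO and lay wholly below them in WT.

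Hapln1, at 8.40 FPKM in KO and 8.53 FPKM in WT, lay above Acan, at 7.39 FPKM in KO and 6.90 FPKM in WT, in every library. Sox6 averaged 3.60 FPKM in KO and 3.77 FPKM in WT. Sox5 averaged 1.39 FPKM in KO and 1.31 FPKM in WT. Matn1 had a different place in each genotype. In WT its 4.34 ± 0.635 FPKM overlapped the level of Sox6, whereas in KO its 0.189 ± 0.0529 FPKM lay below that of Matn3. Matn3 was low in both, at 0.416 ± 0.0236 FPKM in KO and 0.359 ± 0.0722 FPKM in WT. Snorc, which encodes a small chondroitin sulfate proteoglycan of cartilage, was hardly read at all.

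**Figure D1:**
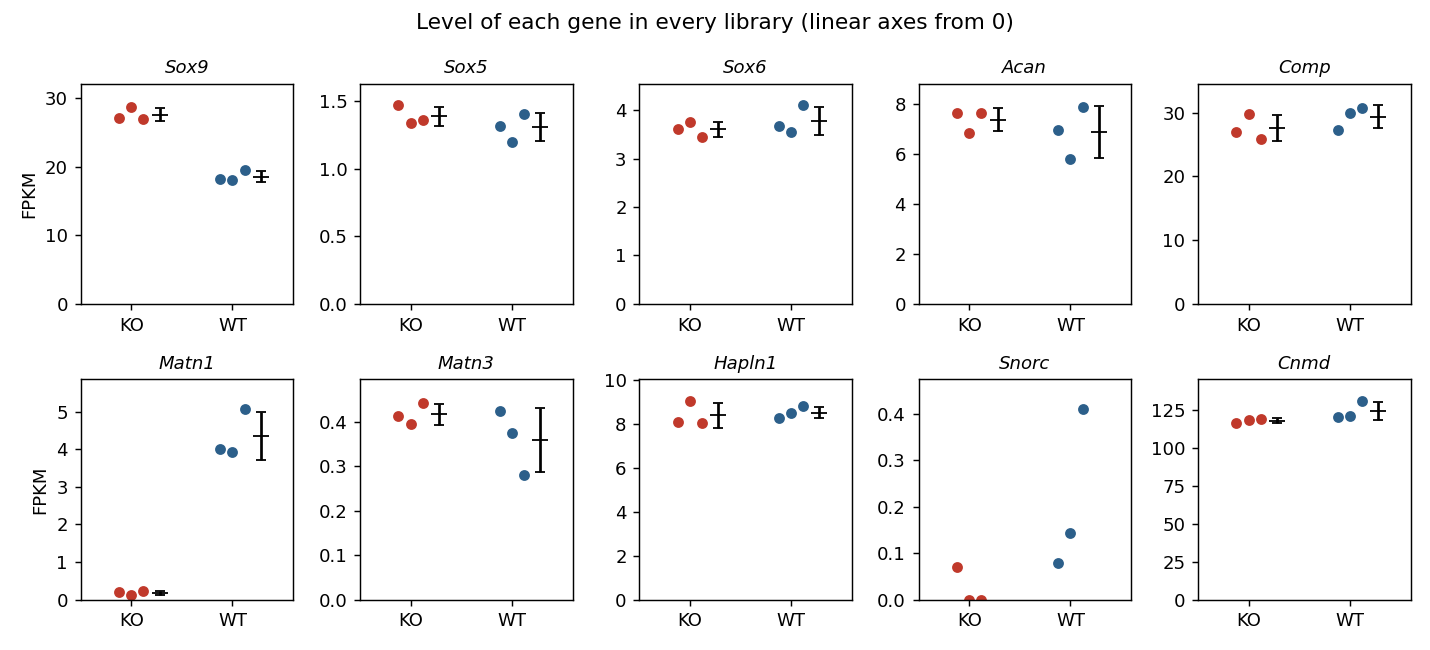
FPKM of each of the 10 genes in every library, KO (red) left of WT (blue), on linear axes from 0 with a scale of its own for each gene; black marks give the mean and SD of 3 libraries and are left out for Snorc, which was listed at 0 in some libraries. Sox9 in KO (27 to 28.7) lay above WT (18.1 to 19.5) and Matn1 in KO (0.128 to 0.226) far below WT (3.93 to 5.08).

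Among the regulators, Sox9 rose and the pair that works with it did not pass the test. Sox9 (ENSMUSG00000000567, chromosome 11, 112673050 to 112678586 as deposited; the mouse build is not given in the sources used here) had 8948, 7741 and 9021 counts in KO and 5325, 5305 and 5858 counts in WT. Scaled, these were 117, 123 and 117 CPM in KO and 81.4, 80.8 and 87.3 CPM in WT. The lowest KO library lay well above the highest WT library. The increase was 1.43-fold, a log2 change of 0.52 ± 0.04 (SE) with a 95% interval of 0.43 to 0.61 (edgeR, adjusted p = 6.32e-06). Under the 14 alternatives tried the log2 change of Sox9 ran from 0.50 to 0.57 and the call was kept in each.

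Sox6 (chromosome 7) stood at 55.7, 57.9 and 53.9 CPM in KO and at 59.2, 56.7 and 65.7 CPM in WT. The groups overlapped, since KO replicate 2 lay above WT replicate 2. Its log2 change was -0.12 with a 95% interval of -0.25 to 0.01 (edgeR, adjusted p = 0.188). Sox5 (chromosome 6) stood at 22.1, 20.1 and 20.6 CPM in KO and at 20.6, 18.7 and 22 CPM in WT, groups that overlapped throughout. Its log2 change of 0.03 had an interval of -0.13 to 0.20 (adjusted p = 0.81) and its sign turned without KO replicate 1 or WT replicate 2 (-0.01 and -0.03). Neither interval reaches that of Sox9, which began at 0.43.

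Because all 3 SOX genes were read in the same libraries, their ratio does not depend on how libraries were scaled. The FPKM of Sox9 over that of Sox6 was 7.56, 7.66 and 7.81 in KO and 4.94, 5.12 and 4.77 in WT. Sox9 over Sox5 was 18.5, 21.5 and 19.8 in KO and 13.8, 15.1 and 13.8 in WT. Both ratios were higher in each KO library than in any WT library. Sox6 over Sox5 averaged 2.60 ± 0.187 in KO and 2.88 ± 0.0785 in WT, and the groups overlapped. The ratios of matrix genes to Sox9 lay the other way. They share Sox9 as denominator and, since Comp, Cnmd and Acan changed little, they mostly restate its rise. Comp over Sox9 averaged 0.998 ± 0.0395 in KO and 1.58 ± 0.0784 in WT, Cnmd over Sox9 averaged 4.26 ± 0.157 in KO and 6.67 ± 0.042 in WT, and Acan over Sox9 averaged 0.268 ± 0.0257 in KO and 0.37 ± 0.0424 in WT. By the exact permutation test, two-sided, p was 0.1 for each ratio of Sox9 with another gene named here, the smallest that 3 against 3 libraries allow, and 0.157 after Benjamini-Hochberg adjustment over the 11 ratios computed.

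**Figure D2:**
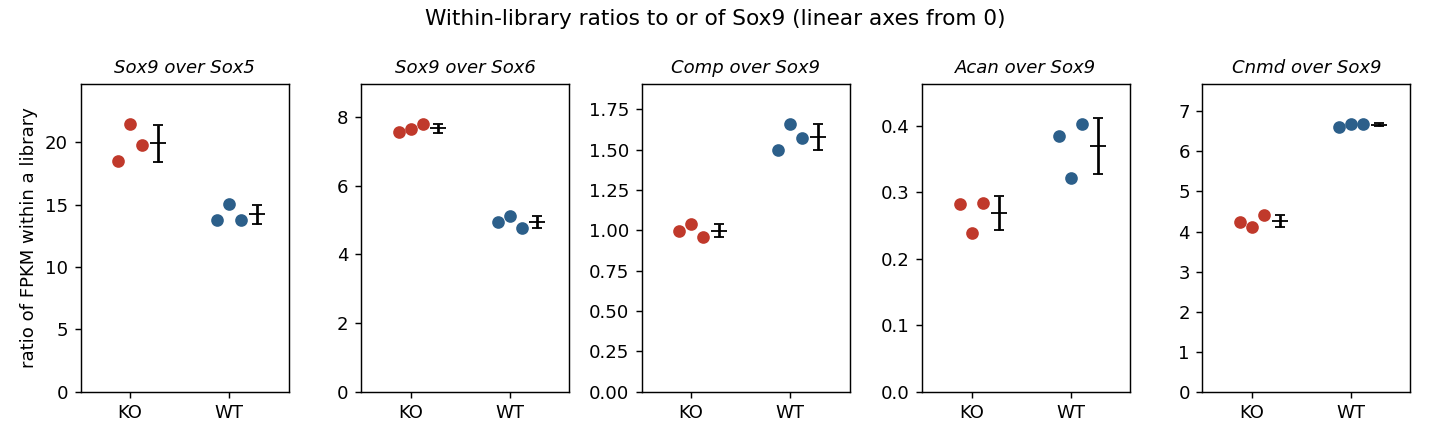
Ratio of FPKM within each library for 5 pairs of genes that include Sox9, KO (red) left of WT (blue), on linear axes from 0; black marks give the mean and SD of 3 libraries. In KO the ratios of Sox9 to Sox5 and to Sox6 lay above WT in every library, and the ratios of Comp, Acan and Cnmd to Sox9 lay below.

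Aggrecan and its link protein did not pass the test. Acan (chromosome 7) had 59.6, 53.2 and 60.2 CPM in KO and 56.4, 47.0 and 63.6 CPM in WT. WT replicates 2 and 3 were the lowest and the highest of all 6 libraries, with the KO libraries between them. The log2 change was 0.05 with a 95% interval of -0.16 to 0.26 (edgeR, adjusted p = 0.765), and it was -0.06 without WT replicate 2. Hapln1 (chromosome 13) had 49.7, 55.6 and 50 CPM in KO and 52.9, 54.1 and 56.2 CPM in WT. Its log2 change was -0.07 with an interval of -0.19 to 0.05 (adjusted p = 0.404). The FPKM of Acan over Hapln1 averaged 0.885 ± 0.112 in KO and 0.808 ± 0.108 in WT, with overlapping groups. Gm8546, which overlaps Hapln1 on the opposite strand, held 33 to 56 counts in KO and 14 to 32 counts in WT, and how reads of either strand were counted is not given in the sources used here.

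Comp (chromosome 8), whose pentameric product binds collagen fibrils in cartilage and tendon, stood at 83.5, 92.0 and 80.8 CPM in KO and at 87.7, 96.1 and 98.4 CPM in WT. KO replicate 2 lay within the WT range. The log2 change was -0.14 ± 0.06 and missed the threshold (edgeR, adjusted p = 0.112), but it passed without KO replicate 2 (-0.20, adjusted p = 0.0333). Cnmd (ENSMUSG00000022025, chromosome 14, 79875130 to 79899610) stood at 222, 226 and 231 CPM in KO and at 240, 241 and 260 CPM in WT. Its KO libraries lay below its WT libraries by a small margin. Cnmd fell to 91.5% of its level in WT, the 95% interval running from 86.6 to 96.7% (log2 change -0.13 ± 0.04, edgeR, adjusted p = 0.0258).

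That call of Cnmd was fragile. It was lost in 8 of 14 alternatives, among them library totals without TMM (-0.08, adjusted p = 0.128), limma on FPKM with a pseudocount of 1 (-0.08, adjusted p = 0.231) and edgeR with a library left out, namely KO replicate 1 (adjusted p = 0.101), KO replicate 2 (0.0688) or WT replicate 3 (0.0888). Tnmd, the paralog of Cnmd that encodes tenomodulin and is known from tendon, stood at 138, 140 and 137 FPKM in KO and at 273, 269 and 278 FPKM in WT. It fell 2.04-fold (log2 change -1.03 ± 0.03, adjusted p = 2.54e-09). The 95% interval of Cnmd, -0.21 to -0.05, lies far from that value.

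**Figure D3:**
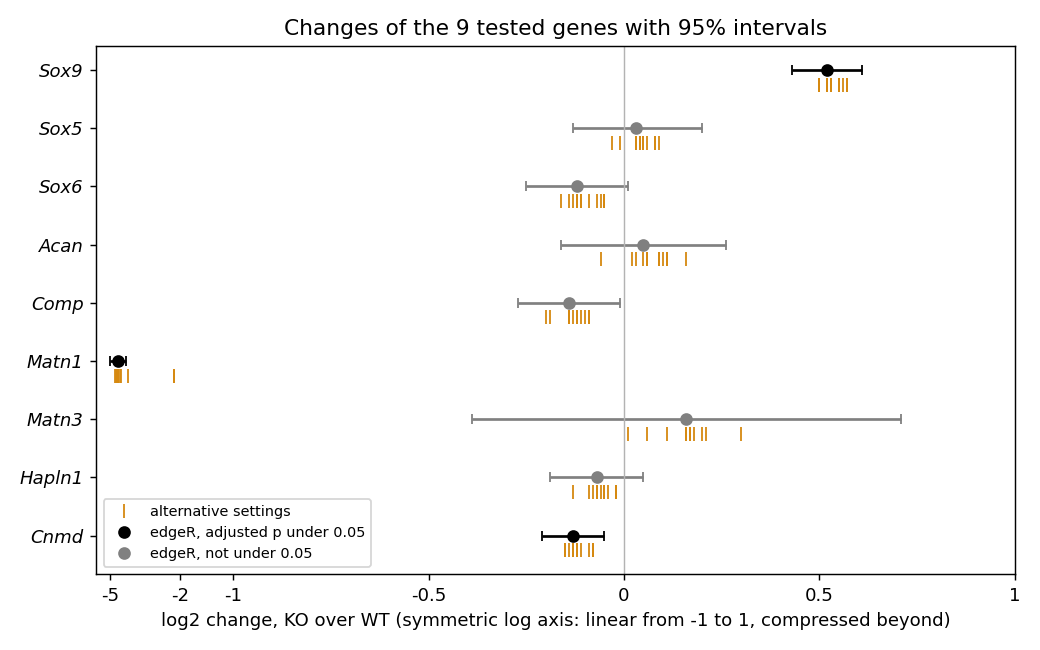
Log2 change, KO over WT, of the 9 tested genes with 95% intervals from edgeR (black: adjusted p under 0.05, grey: not) and, as orange ticks, the log2 change under each alternative setting; the axis is linear from -1 to 1 and compressed below -1. Matn1 (-4.54) and Sox9 (0.52) lay away from 0 in each setting, and Sox5 and Acan crossed 0 in some.

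Matn1 was the exception among the tested matrix genes of the set, though cartilage matrix genes outside it, such as Cilp and Cilp2, also fell steeply. Matn1 encodes matrilin-1, a filament-forming protein found mainly in cartilage. Matn1 (ENSMUSG00000040533, chromosome 4, 130671696 to 130682786 in the deposited coordinates) had 34, 17 and 37 counts in KO and 570, 558 and 737 counts in WT. These were 0.445, 0.271 and 0.481 CPM in KO and 8.71, 8.5 and 11 CPM in WT. Matn1 fell 23.2-fold, to 4.31% of its level in WT (95% interval 3.08 to 6.04%) (log2 change -4.54 ± 0.22, edgeR, adjusted p = 2.26e-07). The call was kept in all 14 alternatives, and leaving out any 1 library gave log2 changes of -4.69 to -4.34. On log2(FPKM + 1), a scale that understates the change of low genes, it was -2.16.

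Matn3, a paralog that is also cartilage-restricted and is mutated in some human forms of epiphyseal dysplasia, did not share this difference. It had 99, 78 and 108 counts in KO and 91, 80 and 62 counts in WT, or 1.3, 1.24 and 1.4 CPM in KO and 1.39, 1.22 and 0.924 CPM in WT. The groups overlapped, with WT replicate 3 lowest. The log2 change of 0.16 had a 95% interval of -0.39 to 0.71 (edgeR, adjusted p = 0.719), wide because of the low counts. The FPKM of Matn1 over that of Matn3 was 0.515, 0.325 and 0.512 in KO and 9.51, 10.5 and 18.1 in WT (exact two-sided permutation p = 0.1, the smallest possible, and 0.157 adjusted over 11 ratios).

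The remaining matrilins, which are expressed in many tissues and are read at higher levels here, were lower in KO. Matn4 stood at 306, 348 and 290 CPM in KO and at 1090, 1138 and 1120 CPM in WT, a 3.55-fold decrease (log2 change -1.83 ± 0.06, adjusted p = 1.05e-08). Matn2 stood at 175, 176 and 167 CPM in KO and at 240, 243 and 243 CPM in WT, a log2 change of -0.49 ± 0.03 (adjusted p = 9.68e-07 by edgeR). In both genes all KO libraries lay below all WT libraries. In the deposited coordinates Matn4 shares 2020 bases with Rbpjl on the opposite strand, which had 626 to 798 counts in KO and 1628 to 1771 in WT, so some reads could belong to either gene. These numbers are small beside the 21816 to 23350 counts of Matn4 in KO and 71277 to 75175 in WT.

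**Figure D4:**
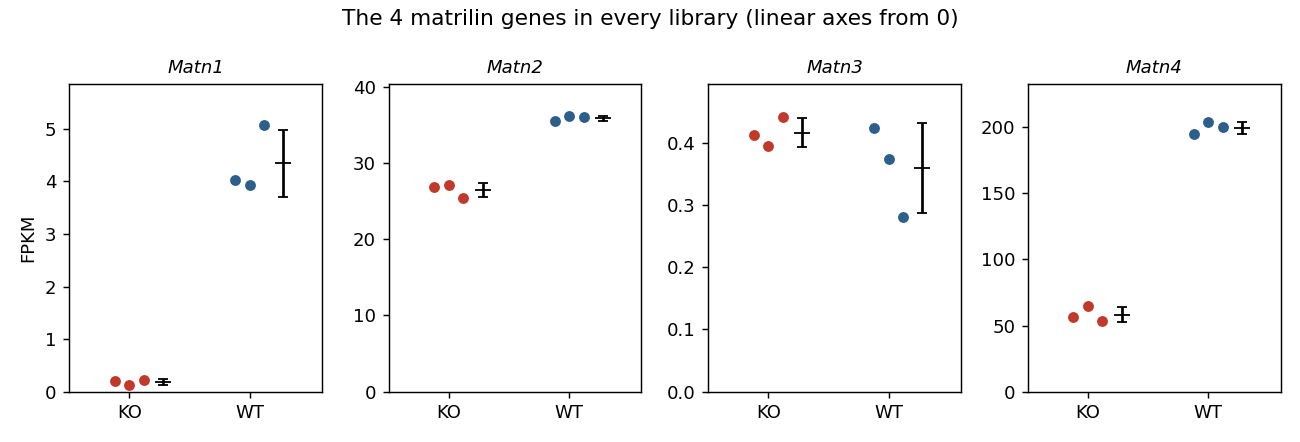
FPKM of the 4 matrilin genes in every library, KO (red) left of WT (blue), on linear axes from 0; black marks give the mean and SD of 3 libraries. Matn1, Matn2 and Matn4 lay lower in each KO library than in any WT library, while the libraries of Matn3 overlapped.

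The stretch before the transcription start is shown for the cartilage-restricted matrilins, since Matn1 and Matn3 are both counted as cartilage genes and only Matn1 passed the test. Each is the 250 bases up to the start in RefSeq (GRCm38.p6, plus strand), at chr4:130944135-130944384 for Matn1 and chr12:8947679-8947928 for Matn3, and GENCODE release M21 placed no exon in either window. Capitals mark the letters CAAAG or CTTTG, the same motif on either strand, which is part of the site that SOX and TCF/LEF proteins bind. The bases beside the motif were not part of the search, so a marked stretch need not be a full site. CAATG and CATTG were searched as well and were in neither window.
Matn1: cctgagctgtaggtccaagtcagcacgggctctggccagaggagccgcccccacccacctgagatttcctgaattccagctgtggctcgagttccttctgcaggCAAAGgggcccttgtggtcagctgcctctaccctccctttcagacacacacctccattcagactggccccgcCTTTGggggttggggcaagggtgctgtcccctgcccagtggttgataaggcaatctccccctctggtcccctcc
Matn3: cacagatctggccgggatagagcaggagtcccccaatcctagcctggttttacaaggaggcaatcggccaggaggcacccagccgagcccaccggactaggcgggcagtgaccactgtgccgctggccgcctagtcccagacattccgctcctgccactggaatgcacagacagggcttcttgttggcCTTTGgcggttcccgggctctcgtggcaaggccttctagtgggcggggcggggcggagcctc
The Matn1 window holds the CAAAG motif on each strand and the Matn3 window holds it on the minus strand. Of 32851 RefSeq promoter windows of the same length, 48.6% hold CAAAG on either strand and 32.6% hold CAATG, so such matches are common and describe the letters only. The 2 windows are rich in G and C, at 62.0% for Matn1 and 65.2% for Matn3. Of the 10 genes, 7 had an entry in the RefSeq promoter table, and Sox9, Comp and Snorc did not.

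None of the genes nearest to Matn1 was called lower. Laptm5, a lysosomal membrane protein gene of blood cells that lies 8.24 kb before it, had 3123 to 3480 counts in KO and 1094 to 1640 in WT (log2 change 1.19 ± 0.12, adjusted p = 5.42e-05 by edgeR). Sdc3, the next gene on that side, changed by 0.07 ± 0.03 (adjusted p = 0.153). On the far side lay Ptpru, 813 kb away, at -0.15 ± 0.08 (adjusted p = 0.239). The neighbours of Sox9 on chromosome 11 were long noncoding RNAs and a pseudogene. BC006965, 0.248 kb before Sox9, had 8 to 22 counts in KO and 0 to 11 in WT, and 2610035D17Rik, 256 kb after it, changed by -0.25 ± 0.21 (adjusted p = 0.452).

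Snorc (chromosome 1) was read at 4, 0 and 0 counts in KO and 4, 8 and 22 counts in WT, too few for the count filter. WT replicate 3 supplied most of the reads. On the CPM scale the KO libraries, at 0.0524, 0 and 0, lay below the WT libraries, at 0.0612, 0.122 and 0.328, though KO replicate 1 and WT replicate 1 rest on 4 counts each. When every gene was tested without a filter its log2 change was -3.12 ± 1.45, with an adjusted p of 0.259 by edgeR, and DESeq2 gave -3.25 ± 1.53 with an adjusted p of 0.145, so no difference was detectable at this depth. Ihh, the hedgehog ligand of prehypertrophic chondrocytes, had a like pattern, with 4, 0 and 0 counts in KO and 5, 0 and 23 in WT, and it was not tested either.

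Lists of genes that work with the 10 were counted to set them in context; the lists overlap in a few genes, and merged they hold 121 tested genes, of which 19 were higher and 48 lower in KO. The median log2 change of the merged lists was -0.11. Among all genes tested, 11.2% were higher and 11.7% lower.

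Of 8 cartilage collagen genes, 1 rose and 6 fell, with a median log2 change of -0.47. Col2a1, the type II collagen of cartilage and a direct target of SOX9, stood at 4366, 4348 and 4749 CPM in KO and at 2927, 2818 and 3138 CPM in WT. All KO libraries lay above all WT libraries, and the 1.52-fold increase passed the test (log2 change 0.60 ± 0.04, edgeR, adjusted p = 3.30e-06). Col9a1, of the type IX collagen that coats type II fibrils, stood at 136, 140 and 140 CPM in KO and at 325, 316 and 346 CPM in WT, a 2.38-fold decrease. Col11a1, Col11a2 and Col27a1 changed by -0.48, -0.50 and -0.45. Col10a1, the collagen of hypertrophic chondrocytes, was low, at 4.15, 2.74 and 6.18 CPM in KO and 9.63, 6.90 and 8.17 CPM in WT. Its decrease (-0.91 ± 0.25, adjusted p = 0.0242) lost its call in 6 of 14 alternatives, among them leaving out KO replicate 1, WT replicate 1 or WT replicate 3 (adjusted p = 0.0858, 0.0975 and 0.0671).

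Of 20 further non-collagen genes of cartilage matrix, 2 rose and 12 fell, with a median of -0.69. Cilp, the cartilage intermediate layer protein, stood at 2.97, 2.57 and 3.13 CPM in KO and at 25, 23.8 and 25.5 CPM in WT, an 8.54-fold decrease, and its paralog Cilp2 fell 10.6-fold. Epyc, a small leucine-rich proteoglycan of growth plate cartilage, fell to 67.0 ± 6.79 CPM in KO, against 122 ± 1.82 CPM in WT. Ucma, a vitamin K-dependent protein of young chondrocytes, fell to 2.06 ± 0.271 CPM in KO, against 5.73 ± 1.34 CPM in WT. Mgp, which encodes the calcification inhibitor matrix Gla protein, rose to 303 ± 3.96 CPM in KO, against 167 ± 7.81 CPM in WT. Dlk1 (-1.38 ± 0.08), counted in this list, is a transmembrane protein of progenitor cells and no matrix protein. All of these passed, with edgeR adjusted p between 9.33e-09 for Cilp and 3.63e-04 for Ucma.

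**Figure D5:**
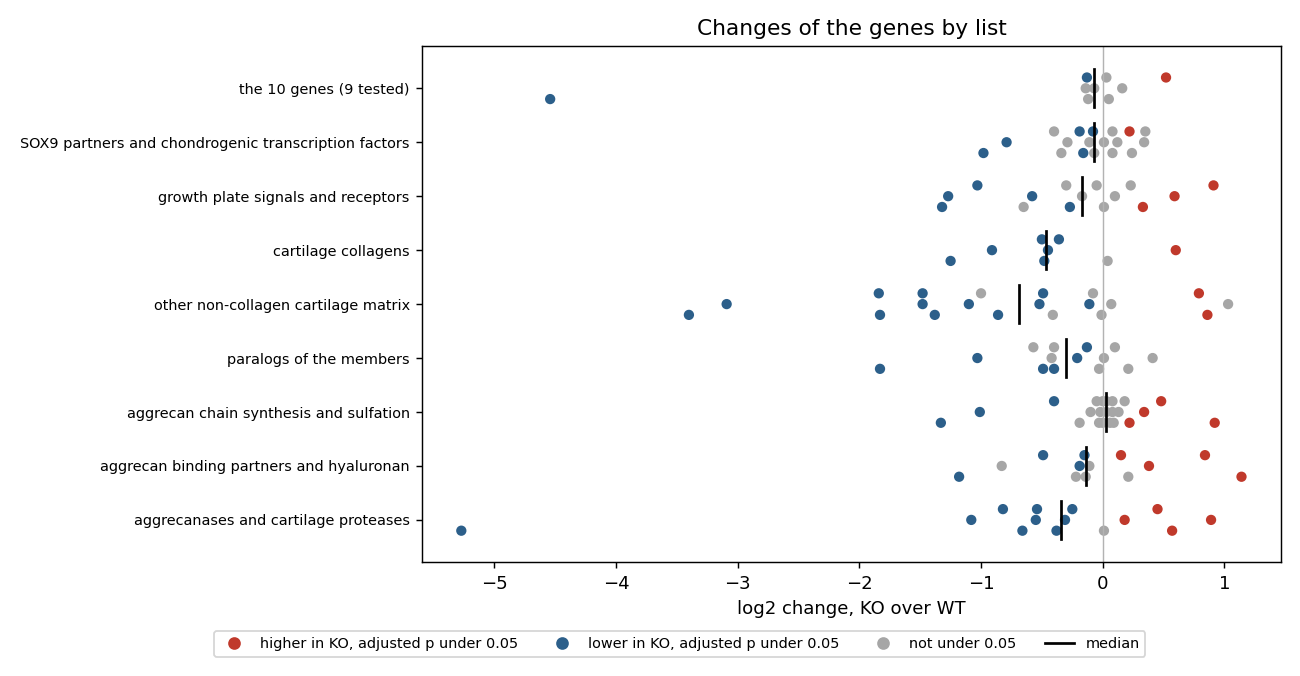
Log2 change, KO over WT, of every tested gene in each list (points), with the list median as a black bar; red marks genes called higher in KO, blue genes called lower and grey the rest. The medians ran from -0.69 for other non-collagen cartilage matrix to 0.03 for aggrecan chain synthesis and sulfation.

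Of 14 tested paralogs of the 10 genes, 6 fell and none rose. Versican, encoded by Vcan and related to aggrecan, stood at 382 ± 3.74 CPM in KO and 379 ± 16.5 CPM in WT, with a log2 change of 0.01 ± 0.03 (edgeR, adjusted p = 0.866). Its gene lies 43.7 kb from Hapln1. The thrombospondin Thbs1, related to Comp, changed by -0.03 ± 0.02 (adjusted p = 0.363), and its sign turned on library totals and on FPKM (0.02). Thbs4, a thrombospondin of tendon and muscle, fell to 33.6 ± 2.06 CPM in KO, against 44.4 ± 1.39 CPM in WT (-0.40 ± 0.06, adjusted p = 5.18e-04). Sox8, Sox10 and Sox13 were read at low levels, between 1.08 and 5.05 CPM on average in KO and between 1.45 and 3.80 CPM in WT, and none passed (adjusted p = 0.339, 0.44 and 0.105).

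Of 18 tested partners of SOX9 and other chondrogenic transcription factors, 1 rose and 5 fell, with a median of -0.08. Foxc1, a forkhead factor of skull and cartilage, rose by 0.22 ± 0.04. Zbtb20, a zinc finger repressor, fell by 0.79 on the log2 scale, at 49.9 CPM in KO against 86.1 CPM in WT. The homeobox gene Prrx1 changed by -0.19 ± 0.02. Of 15 tested growth plate signals and receptors, 3 rose and 5 fell. Fgfr3, the receptor that restrains growth of chondrocytes, stood at 35.3, 37.3 and 34.1 CPM in KO and at 23.8, 24.1 and 23.0 CPM in WT (log2 change 0.59 ± 0.06, adjusted p = 3.07e-05 by edgeR). Bmp6 (-1.03 ± 0.09), Bmp2 (-1.27 ± 0.14) and Fgf18 (-1.32 ± 0.24) fell. Pthlh, which encodes the hormone that slows chondrocyte maturation, was barely read, with 6, 20 and 12 counts in KO and 10, 31 and 16 in WT.

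Of 22 tested genes that build and sulfate the chondroitin chains of aggrecan, 4 rose and 3 fell, with a median of 0.03. Csgalnact1, which starts chondroitin chains and is needed for normal cartilage in mice, rose to 77.2 ± 2.73 CPM in KO, against 40.8 ± 1.12 CPM in WT. The sulfate transporter gene Slc26a2 rose by 0.48 ± 0.04. Xylt1, which attaches the first sugar to the core protein, fell to 14.4 ± 0.437 CPM in KO, against 29.0 ± 1.16 CPM in WT, and Chst3, a chondroitin 6-sulfotransferase, changed by -1.33 ± 0.15. Of 13 genes for hyaluronan and other partners of aggrecan, 4 rose and 4 fell. Has2, the main hyaluronan synthase, stood at 34.4, 33.4 and 38.5 CPM in KO and at 15.1, 16.4 and 16.7 CPM in WT, a 2.20-fold increase (adjusted p = 1.52e-06), and the hyaluronan receptor gene Cd44 rose by 0.38 ± 0.03. Tnc, which encodes tenascin-C, changed by -0.49 ± 0.02. Each of these 7 genes passed the same test.

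Of 14 aggrecanases and other cartilage proteases and inhibitors, 4 rose and 9 fell. Adamts12, a protease that degrades COMP, fell to 114 ± 0.575 CPM in KO, against 202 ± 3.25 CPM in WT (-0.82 ± 0.03). Mmp13, a collagenase of hypertrophic cartilage and of bone, rose by 0.89 ± 0.06. Mmp9, which falls furthest in this list (-5.27 ± 0.09), is known chiefly from osteoclasts. Each of the 3 passed (edgeR, adjusted p = 1.76e-08, 1.44e-06 and 6.56e-10).

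Markers of other cell types moved with genotype in the same libraries, and their part in these results was not tested. Of 12 macrophage markers, 11 rose, their sum running from 999 to 1103 CPM in KO and from 395 to 514 CPM in WT, with no marker at 0 in all libraries. Of 6 tendon markers, 3 fell (Tnmd, Thbs4 and Mkx), with sums of 323 to 329 CPM in KO and 544 to 559 CPM in WT, most of it Tnmd. Scx, Egr1 and Kera did not pass, at log2 changes of -0.12, 0.03 and -1.34 (edgeR, adjusted p = 0.473, 0.73 and 0.191). Of 6 fibroblast markers, 5 fell, with sums of 13005 to 13232 CPM in KO and 16064 to 16286 CPM in WT. Skeletal muscle markers, of interest because Sox6 also acts in muscle, summed to between 6.61 and 7.53 CPM in KO and between 10.2 and 11.7 CPM in WT, and 2 of the 6 tested fell. Markers of Schwann cells and neural crest glia, in which SOX proteins also act, summed to between 34.8 and 37.7 CPM in KO and between 21.6 and 26.1 CPM in WT, most of it S100b, which chondrocytes also express. The 3 of 7 erythroid genes that were found summed to between 0.0524 and 0.403 CPM in KO and between 0.0609 and 0.275 CPM in WT.

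Patterns over the 6 libraries were compared by the root mean square distance of centred log2(CPM + 0.1). The genes closest to Sox9 were C1rl, Tle2 and Ckap2, at 0.0193, 0.0211 and 0.0291. Their log2 changes were 0.55, 0.49 and 0.57. Closest to Acan were Cep295nl, Xkr8 and the pseudogene Rpl10a-ps1, at 0.0232, 0.0363 and 0.0385, which share its low value in WT replicate 2. Closest to Matn1 were Myh8 (a perinatal muscle myosin gene), Septin6 and Scg2, at distances of 0.286, 0.326 and 0.416, with log2 changes of -4.39, -4.75 and -4.16. Of the annotation in the deposited table, the term cartilage development was carried by 7 of the 10 genes (Sox9, Sox5, Sox6, Comp, Matn3, Snorc and Cnmd) and by 87 genes in all. The 10 genes lie on 9 chromosomes, with Acan and Sox6 both on chromosome 7, and their spans in the deposited coordinates ran from 5.21 kb for Snorc to 954 kb for Sox5.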

How the data were processed

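The files were 1 table of 29018 mouse genes with a count and an FPKM column for each of 6 libraries from polyA RNA. Counts were deposited as whole numbers per gene, per the file headers and the values. FPKM values were deposited beside them, per the file headers, a unit that scales reads by transcript length and library total. Cutadapt 1.9, HISAT2 2.0.4 and StringTie 1.3.4d are named in the submitters' processing notes. Those notes list a human build although identifiers are of mouse, so the build of the coordinates is not settled. It differs from GRCm38.p6, the build of the promoter windows. Matn1 starts at 130671696 and Matn3 at 8997929 as deposited, while their windows end at 130944384 and 8947928. The counting method and strand setting are not given in the sources used here, which matters for genes that overlap another.

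Groups and replicate numbers came from the labels. Counts were tested with edgeR 4.0.16 (TMM, filterByExpr, quasi-likelihood, no covariate; R 4.3.3), two-sided, with Benjamini-Hochberg adjustment over all 18221 genes kept, called under 0.05. The common biological coefficient of variation was 12.6%. Each SE was derived from the log2 change and its F statistic, and intervals are 95% from the moderated t distribution. Each pair of libraries within a group differed by more than counting noise, the median squared difference of a gene being 5.98 to 7.08 times what counting noise gives, so all were kept as separate samples. The scripts were tested on simulated data. Alternatives were DESeq2 1.42.0, limma 3.58.1 on log2(FPKM + 1), keeping genes that averaged 1 FPKM or more, other scalings and filters, a replicate block and leaving out each library.

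The 10 genes and all lists were chosen with earlier results of these data known. Genes chosen for naming were the 10, up to 6 of lowest p in each list, a fixed set of core genes and the 3 nearest in pattern to Sox9, Acan and Matn1. Not all of these are described above. Those left out include the core genes Thbs2 (log2 change -0.13 ± 0.02), Thbs3 (-0.21 ± 0.04) and Runx2 (-0.23 ± 0.05), all called lower in KO. Cilp2, Ucma, most marker genes, Rbpjl and the neighbours of Matn1 and Sox9 were named outside that rule, after values were seen. Promoter sequences came from RefSeq.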

Additional observations from a re-analysis of the deposited data

How the results depend on the processing

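Of 124 recomputed changes of the 9 tested genes, 112 kept their direction and their side of the threshold. Cnmd lost its call in 8 and Comp gained one without KO replicate 2. The number of the set called lower was therefore 1 in place of 2 without a count filter, on library totals without TMM, in the 3 limma tests on FPKM, and 1 to 2 over the fits that left out a library. Sox5 ran from -0.03 to 0.09, Acan from -0.06 to 0.16 and Vcan from -0.02 to 0.05 when a library was left out, and Thbs1 was at 0.02 on library totals and in each limma test. Over all genes, calls lower in KO numbered 1197 with limma on log2(FPKM + 1), 1151 with a pseudocount of 0.1 and 1341 without a filter on low values, against 2131. Same-numbered KO and WT libraries did not deviate together (correlations of -0.0445, -0.0301 and -0.0069), and no library correlated best with its own number. The replicate block gave 1912 higher and 1976 lower calls, and Sox9 stayed at 0.52, Matn1 at -4.56 and Cnmd at -0.13, all called. Of 770 recomputed changes of the other genes chosen for naming, 29 lost their call. Ctnnb1 lost it in 7 and Col10a1 in 6, and the rest fell on Runx2, Smad3, Thbs2, Thbs3, Cemip2, Col9a2 and Ust. Apart from Col10a1, these genes are not described in the results. The 770 changes do not cover some genes that are named there, such as Col1a1, Spp1, Laptm5 and Rbpjl. Snorc, Ihh and Matn3 are limited by depth.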
